A study of Homo sapiens with 16 samples.

Results

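TAZ knockdown and APC restoration were compared directly in SW480 cells, a human colorectal cancer line whose own APC protein is truncated. The siTAZ cells were the empty-vector SW480 line transfected with siRNA against TAZ, the product of WWTR1. The APC cells were SW480 cells that stably carried a vector expressing wild-type APC, and they received control siRNA. The comparison was made on the 4 siTAZ and the 4 APC arrays, 8 of the 16 arrays of the series, with replicates lettered A to D in each group, and no control array entered the contrast. The other 8 arrays were 4 control arrays (empty vector with control siRNA, titled siGFP) and 4 sibcat arrays (empty vector with siRNA against beta-catenin), whose levels are given beside the contrast as description. All groups shared the same medium, with serum, insulin and hydrocortisone, and the same lipid transfection of siRNA, without further treatment before harvest. The labels do not state the number of clones behind the APC line, the number of siRNA sequences used against TAZ or the time from transfection to harvest. The 2 groups differed in vector, stable line and siRNA at once, so the effects of these, including effects of the siRNA on genes other than WWTR1, cannot be told apart in this contrast.

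TAZ and its paralog YAP are transcriptional coactivators without a DNA-binding domain of their own. They are held in the cytoplasm by the Hippo kinases and, when nuclear, bind TEAD factors, which read the letters GGAATG and drive genes such as CCN2. APC is a scaffold of the destruction complex that hands beta-catenin to degradation, and TAZ protein has been described as another client of that complex. In colorectal cells without working APC, beta-catenin accumulates and drives TCF/LEF target genes such as AXIN2 and CCND1. The contrast thus addresses which mRNA levels of cells with APC put back are unlike those of cells with TAZ removed.

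Promoter sequence is shown for 5 genes of the groups on which the results turn. The letters are from RefSeq, build GRCh38.p14, on the gene's strand from 5' to 3', and end at the base before the annotated start; 125 of the 178 genes chosen by rule for naming had such an entry. CCN2 and DKK1 are shown as YAP/TAZ target genes that were lower in APC than in siTAZ cells, with GGAATG in capitals. The CCN2 stretch is chr6:131951373-131951622 on the minus strand and has the motif at 169, 104 and 95 bases before the start, and the DKK1 stretch is chr10:52314031-52314280 on the plus strand and has it at 50 bases before the start.
CCN2: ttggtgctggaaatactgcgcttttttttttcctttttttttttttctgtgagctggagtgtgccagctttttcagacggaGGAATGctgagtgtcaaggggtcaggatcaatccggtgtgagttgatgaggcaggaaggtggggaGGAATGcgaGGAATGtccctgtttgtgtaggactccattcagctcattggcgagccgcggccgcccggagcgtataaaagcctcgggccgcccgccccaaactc
DKK1: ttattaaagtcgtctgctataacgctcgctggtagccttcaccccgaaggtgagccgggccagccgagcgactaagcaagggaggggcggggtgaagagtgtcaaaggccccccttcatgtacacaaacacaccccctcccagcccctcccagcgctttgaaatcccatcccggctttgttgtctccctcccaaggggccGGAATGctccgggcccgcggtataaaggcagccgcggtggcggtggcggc
HLA-DRB1, HLA-DMA and HLA-DMB are shown as MHC class II genes that were higher in APC cells, with 2 motifs in capitals, CTGATGATG and ATTGG, the inverted CCAAT of the class II Y box. CTGATGATG and ATTGG are at 74 and 46 bases before the start in HLA-DRB1. In HLA-DMA, CTGATGATG is at 108 bases and ATTGG at 79 and 49 bases. In HLA-DMB the marked letters are CCAAT, the same motif on the opposite strand, at 22 bases, with CTGATGATG at 83. Strand and spacing were not required of a match, so a marked ATTGG or CCAAT need not be a Y box. The stretches are chr6:32589849-32589968, chr6:32953098-32953217 and chr6:32941029-32941148, all on the minus strand.
HLA-DRB1: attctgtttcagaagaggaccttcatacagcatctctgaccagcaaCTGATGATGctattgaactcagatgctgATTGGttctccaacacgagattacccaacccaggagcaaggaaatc
HLA-DMA: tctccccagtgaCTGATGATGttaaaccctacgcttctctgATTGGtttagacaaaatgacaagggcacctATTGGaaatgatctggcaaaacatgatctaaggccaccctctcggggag
HLA-DMB: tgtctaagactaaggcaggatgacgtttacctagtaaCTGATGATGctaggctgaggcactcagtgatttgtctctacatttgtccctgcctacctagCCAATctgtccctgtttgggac
In the 250 bases before the start, searched on both strands, GGAATG was present in 10.3% of the 15384 tested genes with a promoter entry. It was present in 8 of the 22 YAP/TAZ target genes with an entry, and in 5 of the 11 of these that were lower in APC cells. CTGATGATG, chosen because these 3 promoters share it, was present in 0.195% of all promoters and in 3 of the 9 entries for class II genes and CD74. ATTGG, on either strand and at any position, was present in 34.1% of all promoters and in 8 of those 9. The motifs do not overlap in these stretches, and a match describes the letters and not a bound site.

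Values are log2 levels from the authors' RMA table, and each difference is APC minus siTAZ, so that a positive value is higher in APC cells and 1 unit is a factor of 2. A gene was called different at a Benjamini-Hochberg adjusted p under 0.05 in a limma fit over all 19775 genes. The sample titles call the arrays of a group biological replicates, but whether these came from separate cultures is not stated. A p-value thus reflects the spread among these arrays alone, part of which may be technical. The depth of an array cannot be counted, and 4 arrays a group limit the precision; the median standard error of a difference was 0.085. Array medians lay between 5.06 and 5.12. Correlations across the 19775 genes were 0.9974 to 0.9982 within siTAZ, 0.9966 to 0.9980 within APC, and 0.9755 to 0.9774 between the 2 groups. As an RNA quality measure, the 3' minus 5' difference of the GAPDH control probe sets was 0.505 ± 0.105 (SD, n = 4) in siTAZ and 0.273 ± 0.0443 (SD, n = 4) in APC cells, without overlap (exact two-sided permutation p = 0.0286, the smallest that 4 against 4 arrays can give). The same difference for ACTB was 2.56 ± 0.386 and 2.08 ± 0.323 (SD, n = 4 each), with overlap (exact two-sided permutation p = 0.171). The part of RNA quality in the results below was not tested beyond a fit with the ACTB measure as a covariate. That fit called 8163 genes and kept 7267 of the 8377 calls of the fit without it. The GAPDH measure, which separated the groups, was not used as a covariate. Replicates A and B differed from C and D in the BioB spike control in both groups (8.63 to 9.03 against 7.72 to 8.11), and 6436 genes were called in A and B alone and 7761 in C and D alone.

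The 2 perturbations left SW480 cells with clearly different mRNA profiles. Of the 19775 genes, 8377 were called (42.4%), 3939 higher in APC cells (19.9%) and 4438 lower (22.4%), and the APC and siTAZ arrays did not overlap for 8117 genes (41.0%). Most differences were small. The median absolute difference over all genes was 0.165, and 1241 called genes reached 2-fold, 473 higher and 768 lower in APC cells. At 4-fold there were 95 higher and 185 lower. The balance of the directions depended on scaling: with each array centred on its median over genes, every difference rose by 0.0825, and 5503 genes were called higher and 3596 lower (60.5% of calls higher, against 47.0% as deposited). Among genes that were not called, 11215 of 11398 had a 95% interval lying wholly within 1.5-fold in either direction, so differences above that size were outside the interval for them, and 183 had a wider interval. The size of a difference depended on the probe set: with the mean over a gene's probe sets, 50 of the 177 called genes named by rule had a difference more than 1.5 times smaller, and 47 of these kept direction and call.

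**Figure D1:**
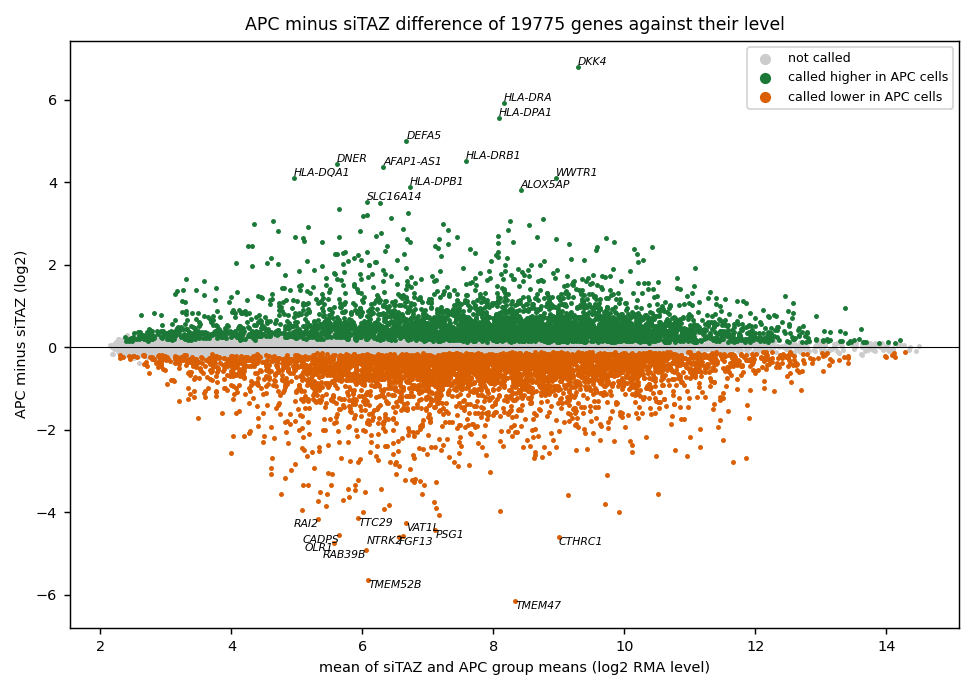
The APC minus siTAZ difference of each of the 19775 genes (y axis, log2) is plotted against the mean of the siTAZ and APC group means (x axis, log2 RMA level); green and orange points are genes called higher and lower in APC cells, grey points were not called, and the 12 largest differences in each direction are named. DKK4 lies highest at 6.78 and TMEM47 lowest at -6.15, and the 4-fold differences are more often negative (185) than positive (95).

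The targeted gene separated the groups as labelled. WWTR1, which encodes TAZ, was at 6.79, 7.0, 6.77 and 7.06 in siTAZ replicates A to D and at 10.90, 11.01, 11.06 and 11.04 in APC cells. The siTAZ arrays were far below all others, and the control and sibcat means were 10.28 and 10.97. The difference was 4.10 (SE 0.07, adjusted p = 1.36e-16), which left siTAZ cells with 5.84% of the APC level, and all 3 probe sets were called in this direction. The APC arrays were all above the control mean, and TAZ protein was not measured. The signal of the APC gene was 8.38 ± 0.087 in siTAZ and 8.30 ± 0.175 in APC cells (SD, n = 4 each) by its brightest probe set, a difference of -0.08 (adjusted p = 0.710), while 2 of its 5 probe sets were called higher in APC cells. The position of these probes relative to the transgene was not examined, so the APC signal does not check the labels.

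The other genes that mark the pathway were lower in APC than in siTAZ cells. YAP1 was at 11.35, 11.14, 11.12 and 11.15 in siTAZ and at 10.49, 10.55, 10.65 and 10.69 in APC cells, without overlap (difference -0.595, adjusted p = 1.35e-05), and the control mean was 11.36. CCN2, the secreted matricellular protein widely used as a readout of YAP and TAZ, was at 4.71, 4.88, 4.72 and 4.77 in siTAZ and at 4.18, 3.79, 3.39 and 3.73 in APC cells. Both groups were below the control arrays, whose mean was 7.26, and the APC arrays were the lower. The difference of -1.0 (SE 0.13, adjusted p = 7.17e-06) lies between levels that are both under 5.10, the median over all probe sets, where RMA values hold much background. JAG1, a Notch ligand induced by beta-catenin, was at 11.18, 11, 11.27 and 11.27 in siTAZ and at 9.73, 9.78, 9.89 and 9.97 in APC cells (difference -1.34, adjusted p = 2.86e-09; 4 of 6 probe sets). The APC arrays lay near the control mean of 9.96 and the siTAZ arrays above it. CTNNB1, which encodes beta-catenin, was at 13.18 to 13.39 in siTAZ and 12.59 to 12.88 in APC cells (difference -0.58, adjusted p = 2.98e-04).

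**Figure D2:**
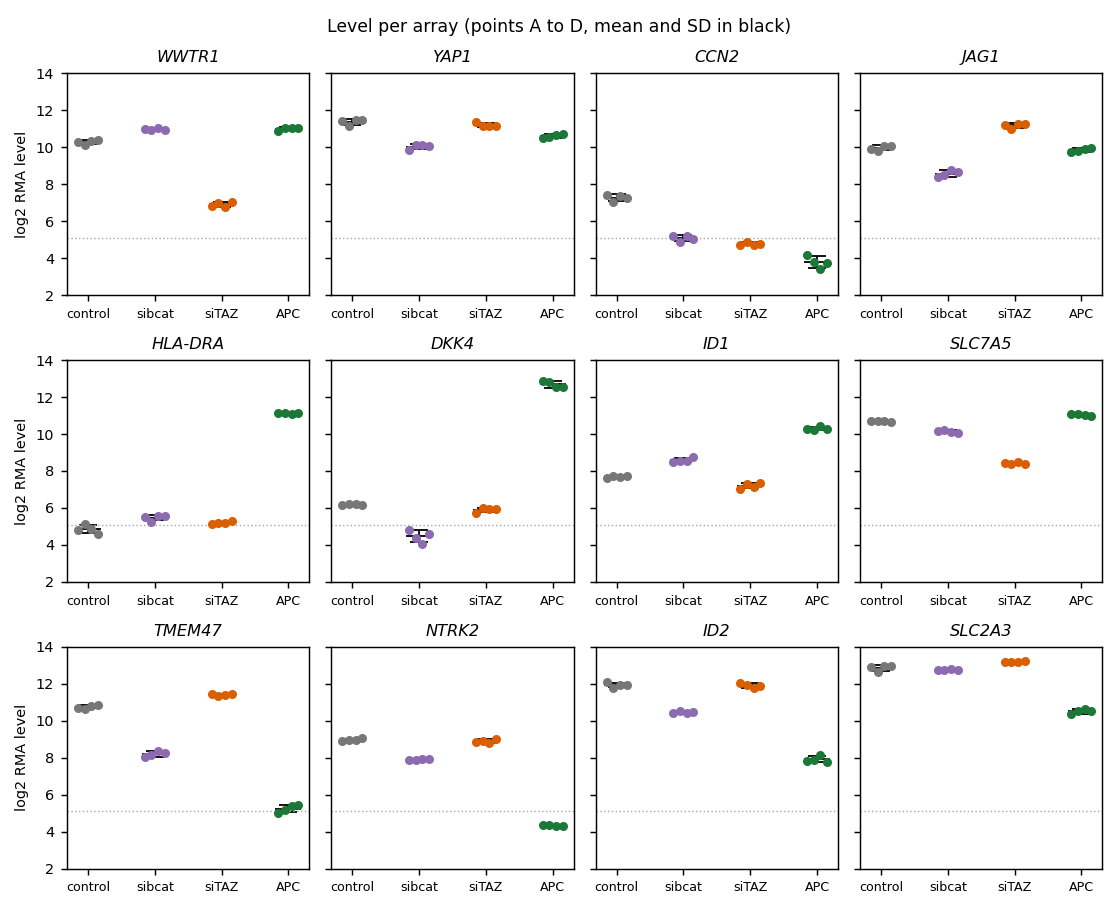
The log2 RMA level of 12 genes (y axis) is shown in each of the 4 arrays of the control, sibcat, siTAZ and APC groups (x axis); points are arrays A to D, black marks are the mean and SD, and the dotted line is the median over all probe sets (5.10). WWTR1, ID1 and SLC7A5 are lowest in siTAZ arrays, HLA-DRA and DKK4 stand out in APC arrays, and TMEM47, NTRK2, ID2 and SLC2A3 are lowest in APC arrays.

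Antigen presentation genes had the highest median difference of the 38 gene lists. The lists were chosen with earlier results of these data known, so ranks among them are descriptions and not tests. Of 26 tested MHC and antigen processing genes, 23 were higher in APC cells and none lower, with a median difference of 1.04 (0.0025 over all genes). Over all genes 19.9% were called higher and 22.4% lower in APC cells. The counts of this and every later list stand beside these shares. HLA-DRA, the alpha chain of HLA-DR, was at 5.14, 5.20, 5.18 and 5.29 in siTAZ and at 11.15, 11.13, 11.07 and 11.13 in APC cells. The siTAZ arrays stayed near the control mean of 4.85, and the difference was 5.92 (SE 0.09, adjusted p = 2.73e-17), or 60.4-fold. HLA-DPA1 was at 5.23 to 5.53 and at 10.76 to 11.01, with siTAZ replicate A the highest of its group (difference 5.55, adjusted p = 5.06e-17). HLA-DRB1 differed by 4.52, HLA-DQA1 by 4.10 and HLA-DPB1 by 3.87, and the probe set of HLA-DRB1 is of the kind that can cross-hybridise with related sequences. HLA-DPB1 differed by 0.82 on its other probe set, and HLA-DQA1 by 2.81 and 0.11 on its other 2. The helpers of class II loading followed the same direction. CD74, the invariant chain, differed by 2.62, HLA-DMA and HLA-DMB, which exchange the bound peptide, by 2.49 and 2.85, and CIITA, the class II transactivator, by 2.17. In the class I pathway the differences were smaller: the peptide transporter subunit TAP2 differed by 1.87 and the immunoproteasome subunits PSMB9, PSMB10 and PSMB8 by 1.31, 1.12 and 0.97, and HLA-B by 0.34. B2M, the class I light chain (0.07), the chaperone TAPBP (-0.12) and HLA-DOA (0.02) were not called. In the same arrays the 12 tested leukocyte markers gave no call, their mean level ranged from 4.49 to 4.64 in both groups, and PTPRC, the pan-leukocyte CD45 gene, was at means of 3.1 and 3.0.

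The largest single difference was in DKK4, a secreted Wnt antagonist and beta-catenin target gene. DKK4 was at 5.74, 6.01, 5.92 and 5.93 in siTAZ and at 12.85, 12.79, 12.55 and 12.53 in APC cells, a difference of 6.78 (SE 0.12, adjusted p = 1.36e-16), or 110-fold. The siTAZ arrays lay close to the control mean of 6.18 and the sibcat mean was lower, at 4.47. Among the other genes with the largest differences in favour of APC cells were DEFA5 (5.0), a Paneth cell defensin, DNER (4.43), a Notch-binding membrane protein, the long noncoding RNA AFAP1-AS1 (4.38), the leukotriene pathway protein gene ALOX5AP (3.82) and the monocarboxylate transporter family gene SLC16A14 (3.51). DEFA5, DNER, AFAP1-AS1, HLA-DQA1, HLA-DPB1 and SLC16A14 had siTAZ means below 5.10, so their folds depend on the background left in RMA values. This held for 107 of the 473 genes at least 2-fold higher in APC cells.

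In the other direction, several cell surface, secreted and neural-type genes were far lower in APC than in siTAZ cells. TMEM47, a junctional membrane protein, was at 11.43, 11.36, 11.42 and 11.44 in siTAZ and at 5.03, 5.19, 5.38 and 5.44 in APC cells (difference -6.15, SE 0.09, adjusted p = 1.81e-17), or 71.1-fold lower. CTHRC1, a secreted collagen triple helix repeat protein, was at 11.23 to 11.37 and at 6.43 to 6.87 (difference -4.60, adjusted p = 6.60e-16). NTRK2, the receptor for brain-derived neurotrophic factor, was at 8.87, 8.93, 8.82 and 9.02 in siTAZ and 4.35, 4.35, 4.29 and 4.33 in APC cells (difference -4.58, SE 0.05, adjusted p = 1.39e-18). The mean over the 6 NTRK2 probe sets was smaller, at -1.54. Groups were far apart in all 3 genes on these probe sets, and the siTAZ means of CTHRC1 and NTRK2 were near their control means of 11.60 and 8.97. The other large differences were in TMEM52B (-5.63), the GTPase gene RAB39B (-4.93), the scavenger receptor OLR1 (-4.76), the FGF homologous factor FGF13 (-4.59), the vesicle priming factor CADPS (-4.55), the pregnancy glycoprotein PSG1 (-4.42), VAT1L (-4.27), RAI2 (-4.16) and TTC29 (-4.14). Their APC means were below 5.10, as were those of 193 of the 768 genes at least 2-fold lower in APC cells. RAB39B varied most within APC cells, from 2.72 to 4.58. Some of these differences lay partly on the siTAZ side of control. VAT1L was 3.28 above its control mean in siTAZ and 0.995 below it in APC cells. RAB39B (1.785), TMEM52B (1.595), PSG1 (1.52), TTC29 (1.455) and RAI2 (1.09) were also above control in siTAZ cells. In APC cells these were further from control, below it. The siTAZ distances of OLR1 (0.3), FGF13 (0.13) and CADPS (-0.095) from control were smaller.

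YAP/TAZ target genes were mostly lower in APC than in siTAZ cells, although siTAZ cells had the lower WWTR1. Of 33 tested, 18 were lower and 6 higher in APC cells, with a median difference of -0.36. DKK1, a secreted Wnt antagonist, was at 9.97, 9.90, 9.95 and 9.97 in siTAZ and at 7.11, 7.34, 7.52 and 7.33 in APC cells (difference -2.62, adjusted p = 1.16e-13). The siTAZ arrays lay just below the control mean of 10.29 and the APC arrays well below it. The LIM protein gene AJUBA (-1.89), IGFBP3 (-1.86), which binds insulin-like growth factors, the angiomotin family gene AMOTL2 (-1.51), ANKRD1 (-1.48), the Hippo kinase gene LATS2 (-1.47) and CCN1 (-1.17) were also lower. The 6 higher in APC cells were NT5E (1.16), F3 (1.03), MYOF (1.01), AXL (0.50), BIRC5 (0.37) and CRIM1 (0.32). THBS1 (-0.02) and TGFB2 (0.18) were among the 9 that were not called.

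Hippo pathway and TEAD components had the same lean, with 18 of 32 lower and 6 higher in APC cells (median -0.27), and several of the lower genes, among them AJUBA, AMOTL2 and LATS2, are also on the target gene list. FRMD6, an upstream FERM-domain protein, was at 9.95, 9.95, 10.12 and 10.16 in siTAZ and at 8.47, 8.28, 8.68 and 8.53 in APC cells (difference -1.55, adjusted p = 1.21e-07), without overlap. The kinase genes STK4 (-0.89) and STK3 (-0.69), the adaptor SAV1 (-0.60) and the cadherin FAT1 (-1.49) were lower, and the kinase activator MOB1A (0.94) was higher. Among the DNA-binding partners TEAD3 was lower (-0.43) and TEAD2 higher (0.26), while TEAD1 (0.01) and TEAD4 (-0.02) were not called.

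Beta-catenin target genes had the lowest median difference of the 38 lists. Of 34 tested, 25 were lower and 6 higher in APC cells, with a median difference of -0.62. ID2, an inhibitor of basic helix-loop-helix factors, was at 12.05, 11.95, 11.77 and 11.90 in siTAZ and at 7.85, 7.89, 8.16 and 7.80 in APC cells (difference -3.99, SE 0.08, adjusted p = 6.93e-16). The siTAZ arrays were at the control level of 11.94. CCND1, which encodes cyclin D1, was at 12.35 to 12.43 and at 10.37 to 10.52 (difference -1.93, adjusted p = 1.27e-13). TNFRSF19 (-1.95), the Wnt inhibitor APCDD1 (-1.77), the feedback scaffold AXIN2 (-1.46) and the receptor ubiquitin ligase RNF43 (-1.22) were lower as well, and MYC by a small amount (-0.23). LGR5 (-0.03), PTPRO (-0.13) and WIF1 (0.07) were not called. DKK4, the protease gene PLAU (1.58), NKD2 (0.89), LGR6 (0.47), CD44 (0.34) and CDC25A (0.22) were higher in APC cells. The Wnt pathway components themselves were split, 12 lower and 10 higher of 38 (median -0.06, and 0.02 after centring the arrays). This is 57.9% called, beside 42.4% over all genes. FZD10 (-2.17), the corepressor TLE4 (-1.04) and WLS (-1.04), which escorts Wnt proteins to the surface, were lower, and the receptors FZD7 (1.07) and FZD1 (0.99) were higher.

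**Figure D3:**
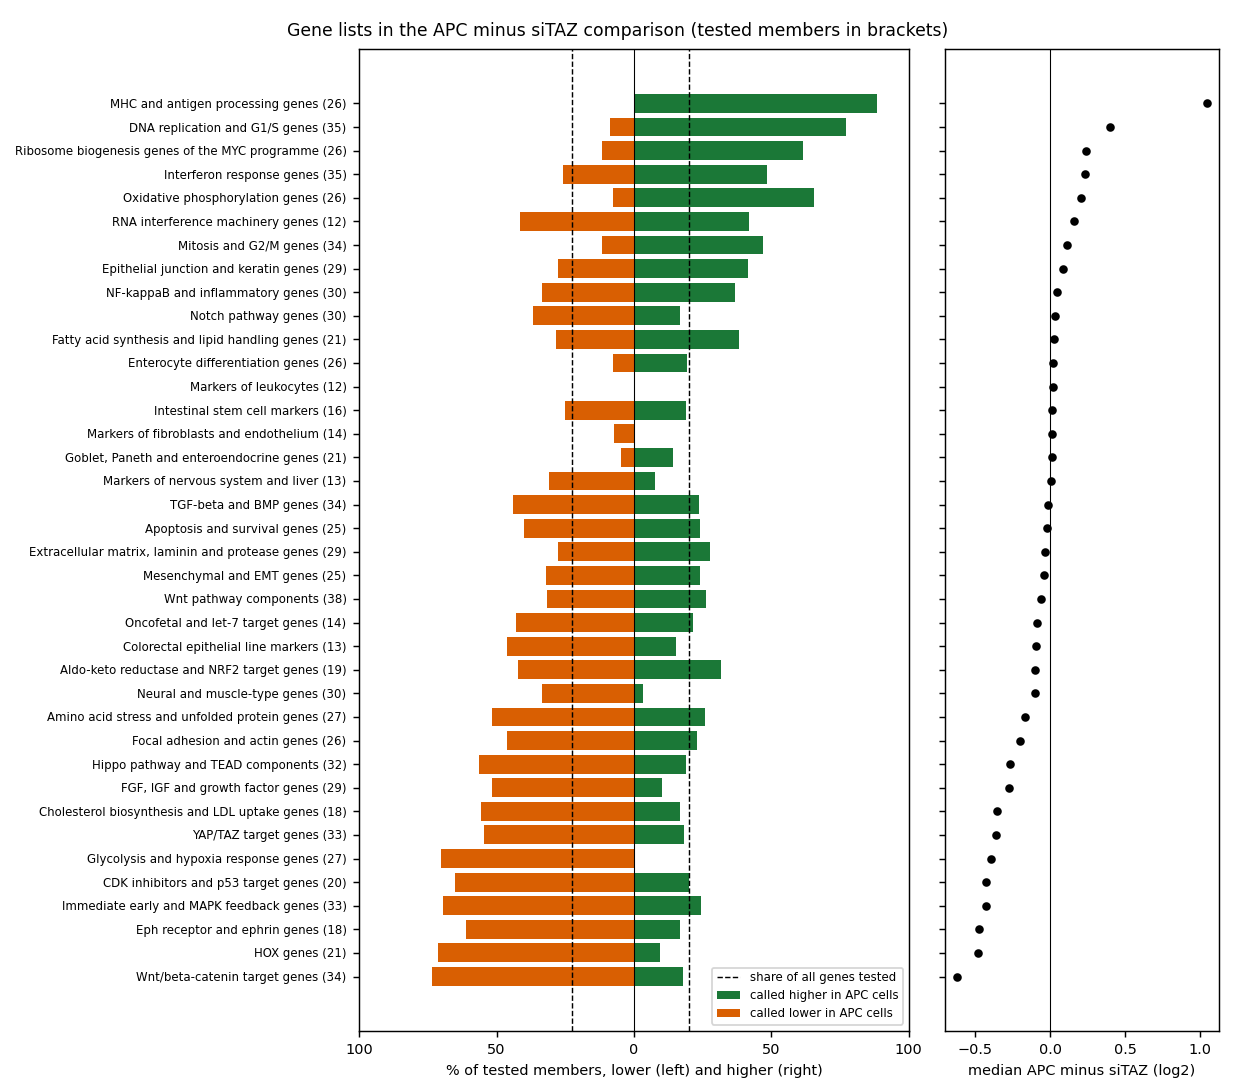
For each of the 38 gene lists (tested members in brackets) the left panel shows the percentage of tested members called higher (green, right) and lower (orange, left) in APC cells, with dashed lines at the shares over all genes tested (19.9% and 22.4%), and the right panel shows the median APC minus siTAZ difference (log2). Lists are ordered by that median, from Wnt/beta-catenin target genes (-0.62) at the bottom to MHC and antigen processing genes (1.04) at the top.

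Genes of cell division were higher in APC than in siTAZ cells. Of 35 DNA replication and G1/S genes, 27 were higher and 3 lower (median 0.40), and of 34 mitosis genes, 16 were higher and 4 lower (median 0.11). E2F8, a repressor of the E2F family, was at 6.04, 6.04, 5.87 and 5.89 in siTAZ and at 8.34, 8.21, 8.55 and 8.31 in APC cells (difference 2.39, adjusted p = 2.30e-11), with a control mean of 8.35. PRC1, the bundler of spindle midzone microtubules, was at 8.53, 8.26, 8.32 and 8.20 in siTAZ and at 10.42, 10.42, 10.40 and 10.50 in APC cells (difference 2.11, adjusted p = 5.91e-14), with a control mean of 10.31. In both genes the APC arrays were near control and the siTAZ arrays below it. MCM10 (1.04) and UHRF1 (1.00), PCNA (0.72), the centromere histone CENPA (0.90) and the spindle checkpoint kinase BUB1B (0.80) differed less. GINS2 differed by 1.41 on its brightest probe set and by 0.73 and 0.06 on its other 2, of which the last was not called. RRM1 (-0.24) and CCNE2 (-0.25) were lower in APC cells. Inhibitors of division and p53 targets went the other way, with 13 of 20 lower and 4 higher (median -0.43). CDKN1C was at 9.33 to 9.58 in siTAZ and at 7.79 to 7.86 in APC cells (difference -1.64, adjusted p = 3.68e-12), and CDKN1A (-1.01) and CDKN1B (-0.85) were lower too, while CDKN2B (1.63) was higher. Ribosome biogenesis genes of the MYC programme were higher in 16 of 26 and lower in 3 (median 0.24). The largest difference on this list was a lower one, MAX at -0.75. POLR1A (0.72), NOLC1 (0.68) and ODC1 (0.60), a polyamine enzyme gene on the same list, were higher.

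Central metabolism was split along 2 lines. Of 27 glycolysis and hypoxia response genes, 19 were lower and none higher in APC cells (median -0.39; after centring the arrays, 18 were lower and 2 higher). SLC2A3, the glucose transporter GLUT3, was at 13.19, 13.19, 13.19 and 13.26 in siTAZ and at 10.35, 10.53, 10.62 and 10.56 in APC cells (difference -2.69, adjusted p = 1.95e-14). NDRG1, a hypoxia-induced gene, was at 11.79 to 11.81 and at 9.11 to 9.20 (difference -2.63, SE 0.05, adjusted p = 2.00e-16), and PFKFB4 (-2.01), ENO2 (-1.67), EGLN3 (-1.58) and ALDOC (-1.51) followed. The abundant enzymes LDHA (-0.07), ENO1 (-0.10), PKM (0.04) and GAPDH (0.09) were not called. Of 26 oxidative phosphorylation genes, 17 were higher and 2 lower in APC cells (median 0.20). MPC2, which helps carry pyruvate into mitochondria, was at 7.31, 7.21, 7.44 and 7.36 in siTAZ and at 10.01, 9.99, 10.05 and 9.97 in APC cells (difference 2.67, SE 0.05, adjusted p = 4.06e-16). Its control mean was 9.96, so the siTAZ arrays were the ones that stood apart. The partner subunit MPC1 (0.69), the complex I subunit NDUFB5 (1.07) and CYC1 (0.63) were higher as well.

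Cholesterol synthesis genes were lower in 10 of 18 and higher in 3 (median -0.35), led by the sterol carrier STARD4 (-1.58), MSMO1 (-1.09) and INSIG1 (-0.87). Among 21 fatty acid and lipid handling genes, 8 were higher and 6 lower. The sterol exporter ABCA1 was at 4.97 to 5.35 in siTAZ and at 7.35 to 7.91 in APC cells (difference 2.45, adjusted p = 3.96e-10), the nuclear receptor PPARG was higher (1.29) and the desaturase SCD lower (-0.82). Amino acid and unfolded protein stress genes were lower in 14 of 27 and higher in 7 (median -0.16). DDIT3 (-1.60) and TRIB3 (-1.24) were lower, and the leucine transporter SLC7A5 was higher, at 8.38 to 8.46 in siTAZ and at 10.98 to 11.09 in APC cells (difference 2.63, SE 0.05, adjusted p = 2.00e-16). Its control mean of 10.68 was nearer to the APC arrays.

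Immediate early and MAPK feedback genes were lower in 23 of 33 and higher in 8 (median -0.43). EGR3, an early growth response factor, was at 8.47, 8.63, 8.81 and 8.68 in siTAZ and at 5.75, 5.85, 6.21 and 6.15 in APC cells (difference -2.66, adjusted p = 3.49e-12). FOSL2 (-1.93), FOS (-1.92), the ERK phosphatases DUSP5 (-1.71) and DUSP6 (-1.39) and EGR1 (-1.33) were also lower. The members higher in APC cells were the EGFR ligand genes EREG (1.41), TGFA (0.74) and HBEGF (0.34), EGFR itself (0.30), SPRED1 (0.76), SPRY1 (0.19), SPRY2 (0.20) and DUSP4 (0.41). Growth factor genes were lower in 15 of 29 and higher in 3 (median -0.28). IGFBP7, a secreted IGF-binding protein, was at 12.22 to 12.32 in siTAZ and at 8.65 to 8.81 in APC cells (difference -3.56, SE 0.06, adjusted p = 5.06e-17), and the siTAZ arrays were near the control mean of 12.08. PDGFA (-2.25), IGFBP2 (-1.25) and FGF18 (-1.17) were lower, and MET, the hepatocyte growth factor receptor (1.60), PDGFC (1.28) and FGFBP1 (0.44) were higher.

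Genes that signal between neighbouring cells were found in both directions. In the Notch pathway 11 of 30 genes were lower and 5 higher in APC cells (median 0.03). This is 53.3% called, beside 42.4% over all genes, and after centring the arrays 10 were lower and 9 higher. The target gene HEY2 was at 8.63, 8.77, 8.69 and 8.71 in siTAZ and at 6.25, 6.29, 6.45 and 6.22 in APC cells (difference -2.40, adjusted p = 2.27e-11), and the target NRARP was also lower (-1.16), as was the ligand JAG1. The glycosyltransferase LFNG (0.97) and the DNA-binding factor RBPJ (0.75) were higher, while HES1 (0.24) and NOTCH1 (0.04) were not called. Eph receptors and ephrins were lower in 11 of 18 and higher in 3 (median -0.47). EPHA4 (-1.58), EPHB6 (-1.36) and EPHA1 (-1.08) were lower, and the 3 higher were EFNA5 (1.91), EPHB4 (1.37) and EFNB2 (1.28). Among TGF-beta and BMP genes 15 of 34 were lower and 8 higher (median -0.01, and 0.07 after centring). The BMP-induced ID1 was at 7.04, 7.27, 7.16 and 7.35 in siTAZ and at 10.29, 10.23, 10.44 and 10.28 in APC cells (difference 3.10, adjusted p = 2.72e-15), opposite in direction to its relative ID2. The BMP antagonist NOG (2.17), the receptor TGFBR1 (1.29) and SMAD6 (1.26) were higher, and LTBP2 (-2.19), GDF15 (-1.61) and BMP4 (-1.24) were lower.

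Epithelial and mesenchymal genes went both ways. Of 29 epithelial junction and keratin genes, 12 were higher and 8 lower in APC cells (median 0.09). CDH1, which encodes E-cadherin, was at 8.61, 8.75, 8.82 and 8.81 in siTAZ and at 10.00, 10.02, 10.04 and 9.98 in APC cells (difference 1.26, adjusted p = 4.85e-10), with a control mean of 9.88. The epithelial factors EHF (1.91) and ELF3 (0.94) were higher and KRT23 was lower (-2.43), while KRT7 differed by 2.29 on its brightest probe set and by 0.14 without probe sets that may cross-hybridise or cover several transcripts (adjusted p = 0.208). Of 25 mesenchymal genes, 8 were lower and 6 higher (median -0.04, and 0.05 after centring). This is 56% called, beside 42.4% over all genes. PRRX1, a mesenchymal homeobox factor, was at 7.41 to 7.60 in siTAZ and at 3.76 to 4.39 in APC cells (difference -3.44, adjusted p = 6.55e-14), and SPARC (-1.74) and the fibronectin receptor chain ITGA5 (-1.39) were lower, whereas LOX (2.05) and SNAI2 (0.93) were higher. CDH11 differed by 3.50 on its brightest probe set, and its 4 probe sets ranged from 0.19 to that value, with 3 of 4 called higher in APC cells. For LOX the mean over its probe sets differed by 0.84. Focal adhesion and actin genes were lower in 12 of 26 and higher in 6 (median -0.20), with RHOB at -1.79 and the integrin chain ITGAV at 2.42. The mean over the RHOB probe sets differed by -0.45. Of 29 extracellular matrix and protease genes, 8 were higher and 8 lower (55.2% called, median -0.04, and 0.05 after centring). MMP9 (2.83) and PLAU (1.58) were higher, and NID1 (-2.12) and COL4A2 (-1.59) were lower.

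The shares of intestinal identity genes called are given beside the 42.4% over all genes. Of 26 enterocyte genes, 5 were higher and 2 lower (26.9% called), with CEACAM1 at 1.38 and the homeobox factor CDX2 at -0.92. The mean over the CEACAM1 probe sets differed by 0.375. Of 21 goblet, Paneth and enteroendocrine genes 19.0% were called: DEFA5, CHGB (1.07) and DEFA6 (0.54) were higher and MMP7 (-0.55) was lower. Of 16 stem cell markers, 3 were higher and 4 lower (43.8% called). ALCAM was at 4.24 to 4.64 in siTAZ and at 7.53 to 7.77 in APC cells (difference 3.18, adjusted p = 1.81e-14), and the kinase gene DCLK1 was at 10.47 to 10.52 and at 7.91 to 8.07 (difference -2.49, adjusted p = 3.83e-15). HOX genes were lower in 15 of 21 and higher in 2 (median -0.48), led by HOXB7 (-1.23) and HOXB8 (-1.14). Of 30 neural and muscle-type genes, 10 were lower and 1 higher (36.7% called), and TNNC1 (-3.43) and SNAP25 (-2.68) were the largest. Of 13 colorectal epithelial line markers, 6 were lower and 2 higher in APC cells, and 10 reached 5.10 in the brighter group. EPCAM was at means of 12.7 and 12.9, KRT18 at 14.1 and 13.9 and VIL1 at 5.84 and 5.56 in siTAZ and APC cells, while KRT20, LGR5 and CEACAM6 were below 5.10 in both. Of 13 nervous system and liver markers, 4 were lower and 1 higher, MBP (1.59), and 7 reached 5.10 in the brighter group. SERPINA1 was at means of 11.4 and 10.8 and GAD1 at 10.0 and 9.28, while ALB was at 2.89 and 2.93. Of 14 fibroblast and endothelial markers 1 was called (TEK, -0.32), and their mean level ranged from 4.20 to 4.32 in siTAZ and from 4.16 to 4.34 in APC cells.

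Inflammatory and interferon genes went both ways. Of 35 interferon response genes, 17 were higher and 9 lower in APC cells (median 0.23). DDX60 was at 5.07 to 5.22 in siTAZ and at 7.13 to 7.37 in APC cells (difference 2.06, adjusted p = 2.36e-10), whereas ISG20 (-2.02), IFI27 (-1.77) and MX2 (-1.29) were lower. Of 30 NF-kappaB and inflammatory genes, 11 were higher and 10 lower. The cytokine IL24 was at 7.78 to 8.22 in siTAZ and at 5.0 to 5.25 in APC cells (difference -2.89, adjusted p = 3.05e-12), with a control mean of 5.73. LCN2 (2.07), CCL20 (1.66), PTGS2 (1.61), CCL2 (1.58) and CXCL10 (1.5) were higher, and the neutrophil chemokines CXCL2 (-1.14) and CXCL8 (-0.84) were lower. Of the 19 aldo-keto reductase and NRF2 target genes, 6 were higher, GPX2 (1.65) and AKR1B10 (1.44) first, and 8 lower, AKR1C3 (-1.80) and HMOX1 (-1.55) first. Among 12 genes of the RNA interference machinery, 5 were higher and 5 lower, with DICER1 at -0.80 and AGO1 at 0.66. Among 14 oncofetal and let-7 target genes, 3 were higher and 6 lower. Among 25 apoptosis genes 6 were higher, with CFLAR, a caspase-8 inhibitor, at 1.02, and 10 were lower (median -0.02, and 0.06 after centring).

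Control levels place each difference. Both groups are set against the same 4 control arrays, so their distances from control are not independent of each other. The genes below were taken by rule among called genes with non-overlapping groups, and their distances are descriptions. In the first pattern siTAZ and APC cells lay on opposite sides of control: the transferase gene MGAT4A was 1.25 below control in siTAZ and 1.89 above it in APC cells, and SLC16A14, NETO2 and IFT70A had the same order. The chemokine receptor CCR7 was 2.03 above control in siTAZ and 1.79 below it in APC cells, as RAB39B, AK5 and the sodium channel subunit SCN4B were in kind. In the second pattern siTAZ cells lay within 0.25 of control and APC cells far from it, with DEFA5, HLA-DRB1, AFAP1-AS1 and HLA-DQA1 above and CADPS, NTRK2, FGF13 and ID2 below. In the third pattern APC cells lay within 0.25 of control and siTAZ cells did not. HMGA2, an architectural chromatin protein, was at 7.05, 7.13, 7.06 and 7.02 in siTAZ and at 9.96, 10.09, 10.03 and 10.02 in APC cells, with a control mean of 9.99 (difference 2.96, SE 0.05, adjusted p = 5.01e-17). Its other probe sets were dimmer, and the mean over all 9 differed by 0.57. The tetraspanin gene TSPAN6, MPC2 and MAT2B shared this order, and ENPP5, CACNA1S, LY96 and YPEL4 were above control in siTAZ cells. The patterns set only siTAZ and APC cells against control. In sibcat cells ENPP5 (1.66) and LY96 (1.28) were above control as well, YPEL4 (0.415) less so, and CACNA1S was near it (-0.12).

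**Figure D4:**
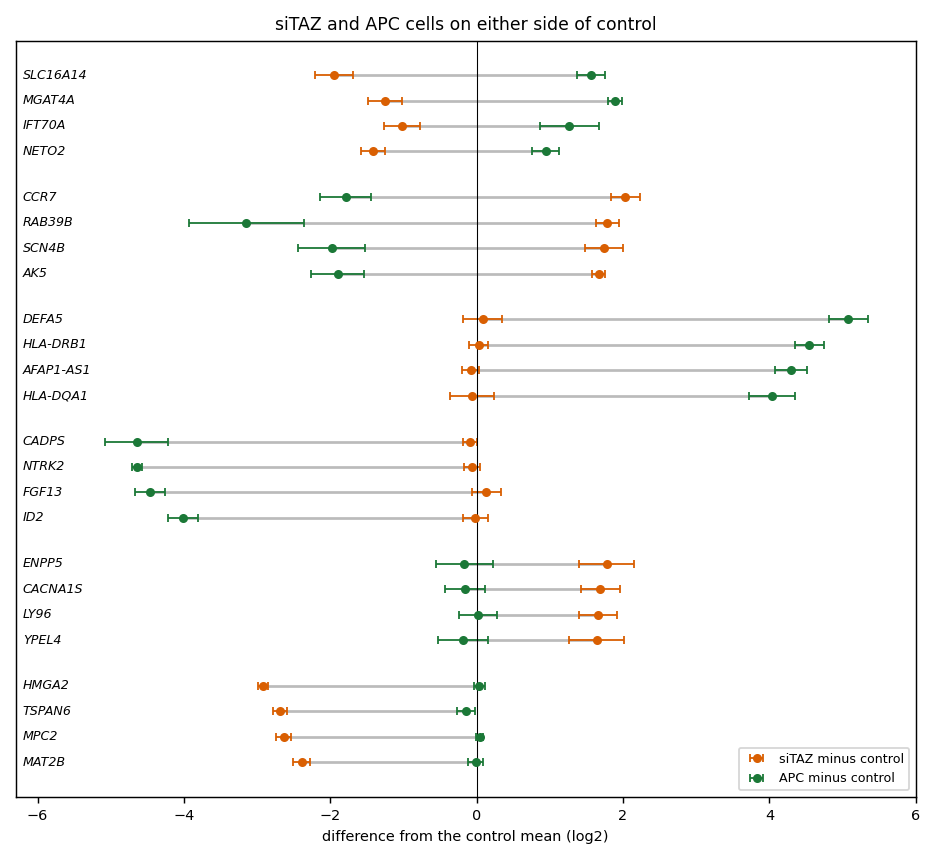
For 24 genes chosen by rule, the siTAZ minus control (orange) and APC minus control (green) differences are plotted on the x axis (log2), with bars of the root of the summed squared SDs of the 2 groups. The upper 8 genes have siTAZ and APC on opposite sides of 0. Of these 2 groups, the APC cells alone are far from 0 in the middle 8, and the siTAZ cells alone in the lower 8. The sibcat cells are not shown.

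The other 8 arrays give a comparison that shares no array with the APC minus siTAZ contrast: beta-catenin siRNA against control siRNA in the empty-vector line. In it 7099 genes were called (35.9%), 3683 higher and 3416 lower in sibcat cells. The list counts after beta-catenin siRNA stand beside these counts over all 19775 genes. Across the 19775 genes the 2 differences had a Pearson r of 0.145 and a Spearman rho of -0.037; genes are not independent replicates, and the arrays share a normalisation and a cell line. Of the genes called in APC minus siTAZ, 58.3% were also called in sibcat minus control, and of the latter 68.8% were called in the former. Of these 4883 genes, 45.0% had the same sign in both. Beta-catenin target genes were lower in both, 25 of 34 each. MHC and antigen processing genes were higher in both, 23 of 26 each, with medians of 1.04 and 0.50. DNA replication genes were higher in APC than in siTAZ cells in 27 of 35 and lower after beta-catenin siRNA in all 35 (medians 0.40 and -0.58). The replication genes named by rule were below control in siTAZ cells too: E2F8 (-2.39), GINS2 (-0.62), MCM10 (-0.59) and UHRF1 (-0.78). Their APC minus control differences were 0.005, 0.79, 0.45 and 0.22. The sign of an APC minus siTAZ difference alone thus does not place APC cells against control. Glycolysis and hypoxia response genes were lower in 19 of 27 and higher in none, and higher after beta-catenin siRNA in 22 of 27 and lower in 1 (medians -0.39 and 0.28). Immediate early genes were lower in 23 of 33, and after beta-catenin siRNA higher in 15 and lower in 7.

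Single genes show both relations. OLR1 was at 7.87 to 7.99 in siTAZ and at 2.98 to 3.45 in APC cells, and at means of 7.64 in control and 3.44 in sibcat cells. ALOX5AP was at 6.46 to 6.54 in siTAZ and at 10.22 to 10.39 in APC cells, and at means of 6.11 in control and 8.82 in sibcat cells. In both genes APC cells resembled sibcat cells in direction, as they did in NTN4, MEGF10, ABCA1 and C3, which were higher, and in TMEM52B, ADAMTS8, ANO4 and TMEM47, which were lower. DKK4 was the opposite case, 6.78 higher in APC than in siTAZ cells and 1.72 lower in sibcat than in control cells, and DHRS2 (1.69 and -1.57) and MARVELD3 (1.56 and -1.34) had the same order. SPARC was 1.74 lower in APC than in siTAZ cells and 3.27 higher in sibcat than in control cells, and HSD3B1 and AKR1C3 had the same order. In these opposite cases the siTAZ cells lay far from control on the sibcat side, except for DKK4: by 1.26 above it in SPARC, 1.69 in HSD3B1 and 2.29 in AKR1C3, and by 1.17 below it in DHRS2 and 1.10 in MARVELD3. AKR1C3 was 0.48 above control in APC cells, the same sign as in sibcat cells.

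**Figure D5:**
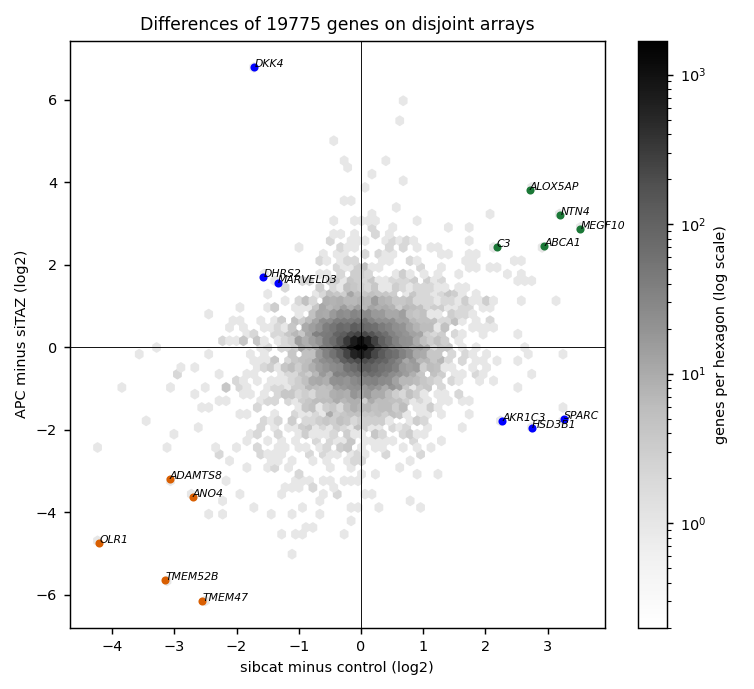
The APC minus siTAZ difference (y axis, log2) is plotted against the sibcat minus control difference (x axis, log2) of 19775 genes; grey hexagons show the number of genes on a log scale, and named points were chosen by rule for the same sign (green higher, orange lower) or opposite sign (blue) in both. The cloud has little slope (Pearson r 0.145), with OLR1 and TMEM47 at the lower left, MEGF10 and ALOX5AP at the upper right and DKK4 at the upper left.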

How the data were processed

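RNA of 16 samples was measured on Affymetrix arrays. The authors deposited 1 table of log2 levels per probe set, made with RMA per the submitters' processing notes (version not given there); base 2 was inferred from their range, 1.8 to 14.56. RMA equalises array distributions and hides changes in a cell's total RNA. Of 54675 probe sets, 41097 named 1 gene, 1801 several and 11777 were not listed. Each of 19775 genes was represented by its brightest probe set over all arrays, with no filter. All 16 arrays entered 1 limma 3.58.1 fit (R 4.3.3; lmFit, eBayes), giving the contrast APC minus siTAZ with Benjamini-Hochberg adjustment over all genes; adjusted p-values are from it. The script was tested on simulated data. Figures were drawn with matplotlib 3.10.9.

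Genes named in the text were the 6 pathway genes given above as checks, the 12 largest differences per direction and up to 4 per list. The genes of each pattern beside control or sibcat were added. All but the 6 had to be called, with non-overlapping arrays (except in lists) and a brighter group reaching 5.10. The genes beside sibcat had to be called in both comparisons instead, with no rule on overlap or level. Further list members are named as examples. Members and the 38 lists (907 genes tested) were chosen with earlier results of these data known. Alternatives were other array sets, blocks, probe set rules, scalings and left-out replicates.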

Additional observations from a re-analysis of the deposited data

Results flagged for a closer look

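Among 356 groups of 4 arrays (the siTAZ and the APC arrays of each of the 178 named genes), 11 had 1 array whose gap to the nearest of the others exceeded Dixon's limit; chance flags about 1 group in 20. All values are log2 levels. In siTAZ cells, YAP1 was at 11.35 in replicate A (others 11.12 to 11.15) and HLA-DPA1 at 5.53 in replicate A (5.23 to 5.24). AGO1 was at 8.09 (7.89 to 7.92), CEACAM1 at 6.89 (6.65 to 6.66) and SLC2A3 at 13.26 (all others 13.19) in siTAZ replicate D. In APC cells, GPX2 was at 7.53 (7.76 to 7.80), HMGA1 at 11.62 (11.48 to 11.49) and PSG1 at 5.31 (4.72 to 4.79) in replicate A. TTC29 was at 3.34 in APC replicate B (4.04 to 4.06). ALCAM was at 7.77 (7.53 to 7.56) and DUSP5 at 8.65 (8.73 to 8.74) in APC replicate D. The siTAZ and APC arrays of these 11 genes did not overlap with or without these arrays.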

How the results depend on the processing

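The counts of genes higher and lower in APC cells stayed within 1.5 times 3939 and 4438 under all 20 alternatives, 3 of which (replicates A and B alone, C and D alone, and without control replicate B) were chosen after seeing the data. With the replicate block they were 4316 and 4761. The genes behind the counts changed in part. With the mean over a gene's probe sets, 7190 of the 8377 calls were kept and 43 were called in the opposite direction. Without _x_at and _s_at probe sets, 6047 of the 7038 calls tested were kept and 60 were called in the opposite direction. Deviations from the group means correlated between same-lettered siTAZ and APC arrays at 0.084, 0.136, 0.149 and 0.153, and siTAZ B correlated best with APC A, so the letters were not taken to pair the samples. Leaving out 1 siTAZ or APC replicate gave 7946 to 8146 calls in all. Centring changed the split of directions, as given with the counts. With the mean over a gene's probe sets, 4254 genes were called higher and 3976 lower. Of the 177 called named genes, 165 kept direction and call throughout. The APC gene's difference of -0.08 turned to 0.35 with the mean of its probe sets, and was then called, to 0.0225 without _x_at and _s_at probe sets and 0.005 with centred arrays, and ranged from -0.119 to 0.0075 (without APC replicate B) when 1 replicate was left out. Without _x_at and _s_at probe sets, SERPINA1 turned from -0.58 to 0.05 and TNRC6A from 0.46 to -0.17, and ACSL4, CDH11, GADD45B, GINS2, IGF2BP3, KRT7 and MYL9 lost their calls. For CDH11 and GINS2 this rests on which remaining probe set was brightest: another without these suffixes was called in the same direction (2.62 and 0.73). In this setting 18 of 142 called genes had a difference more than 1.5 times smaller, among them HLA-DPB1 (0.82), HMGA2 (0.95) and MAT2B (0.55). VIL1 lost its call in 7 alternatives, and ASCL2 and BCL2L11 lost theirs with probe set means. The choice of probe set is the construction of these alternatives; other causes were not tested. Arrays with 4 samples a group and levels under 5.10 limit the smallest differences that can be seen.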
